A study of Mus musculus with 16 samples.

Results

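The genes described here are the 10 that encode the core of the microRNA machinery in the mouse: the Argonaute genes Ago1, Ago2, Ago3 and Ago4, the GW182 genes Tnrc6a, Tnrc6b and Tnrc6c, and the processing genes Dicer1, Drosha and Dgcr8. They were chosen by symbol, with earlier results of these data known. All 10 were found among the 43432 gene rows of the RNA-seq table and among the 13091 genes tested. The cells were splenic B cells labelled strain C57B6L/J, grown for 4 days in IL-21 at 10 ng/ml and IL-4 at 25 ng/ml with anti-CD40 at 500 ng/ml, in a study of miR-221-3p and miR-222-3p targets. The 4 groups were KO and Flox cells by RNA-seq and KO and Flox cells by Ago2 HITS-CLIP, with 4 libraries each and the same culture throughout. HITS-CLIP sequences RNA fragments that were crosslinked to a protein and pulled down with it, here Ago2. The allele behind KO, any Cre driver, the age of the mice and whether libraries came from separate mice were not given in the sources used here, so p-values measure only the spread between these libraries.

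A microRNA is cut from its primary transcript in the nucleus by Drosha, an RNase III enzyme, together with Dgcr8, its double-stranded RNA-binding partner. Dicer1 then removes the loop in the cytoplasm, and an Argonaute protein keeps one strand as its guide. The GW182 proteins bind Argonaute and recruit deadenylases to the mRNA that the guide pairs with. The machinery is itself regulated: Drosha and Dgcr8 are known to cut hairpins within the Dgcr8 mRNA. B cell development is known to depend on Dicer1 and on Ago2.

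The microRNAs that bear on these genes are the pair the study is about and those that RefSeq (GRCm38.p6) places inside the genes. The sequences below show that miR-221-3p and miR-222-3p share a seed (bases 2 to 8, in capitals) and that none of the microRNAs hosted in these genes carries it. All are written 5′ to 3′.
mmu-miR-221-3p: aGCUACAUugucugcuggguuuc
mmu-miR-222-3p: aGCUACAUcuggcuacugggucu
mmu-miR-1306-5p: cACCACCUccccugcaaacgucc
mmu-miR-1306-3p: aCGUUGGCucugguggugaug
mmu-miR-3618-5p: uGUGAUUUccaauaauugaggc
mmu-miR-3618-3p: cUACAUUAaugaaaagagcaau
mmu-miR-5113: aCAGAGGAggagagagauccugu

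The miR-221 and miR-222 hairpins lie on the minus strand of chromosome X, at chrX:19146294-19146388 and chrX:19146893-19146971. The hairpins of miR-1306 and miR-3618 lie within Dgcr8 on the minus strand, at chr16:18284239-18284317 and chr16:18284550-18284637. That of miR-5113 lies within Tnrc6b on the plus strand, at chr15:80940039-80940120.

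The KO libraries for RNA-seq held 22947689 to 39236132 reads, and the Flox libraries 25421025 to 39616596. B cell markers were present in every library: their summed level was 432130 to 530790 normalized counts in KO and 437021 to 547187 in Flox over 8 genes. Of 7 T cell markers, 4 NK cell markers and 4 erythroid markers, 0 reached a mean of 10 normalized counts, and Trbc2, Ncr1, S100a8, S100a9, Hba-a1, Hbb-bs and Alas2 were at 0 in every library. The summed level of the 7 myeloid markers was 70.5 to 102.9 in KO and 47.0 to 92.6 in Flox. The dendritic list of 4 genes summed to 2113 to 2704 in KO and 2721 to 3113 in Flox, and its part in the results was not tested. The Mir221 row stood at 0 reads in KO 1 to KO 4 and at 0, 0, 3 and 1 in Flox 1 to Flox 4, and Mir222 had 0 reads in all 8, which allows up to 3 reads in each, so these rows could not check the labels. KO 1 and KO 3 stood apart from the rest in a principal component analysis, on a first component with 33.5% of the variance: KO 1 to KO 4 lay at -38.0, -15.3, -35.6 and 7.47, and the Flox libraries at 14.5 to 26.5. On the second component KO 1 to KO 4 lay at 20.1, 36.1, -40.5 and -12.7, and the Flox libraries at -3.7 to 5.3. KO 1 and KO 3 were thus farthest from Flox on the first component only. Smaller fold changes without them may partly reflect that choice. Mitochondrially encoded RNA took 3.14, 2.24, 4.27 and 1.80% of reads in KO 1 to KO 4 and 1.84 to 2.06% in the Flox libraries.

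The first question was whether RNA of the machinery differed between KO and Flox cells. None of the 10 genes passed the threshold, a Benjamini-Hochberg adjusted p of 0.05 over all genes tested (limma-trend on log2 of the normalized count plus 1). In that fit 0.0687% of all genes passed. DESeq2, run on the whole reads behind those values, also called 0 of the 10, with 1.76% of all genes called, and edgeR called 0. Even so, 9 of the 10 log2 fold changes of KO over Flox were positive, with a median of 0.30, against 6344 of 13091 positive (48.5%) and a median of -0.01 over all genes tested. At an unadjusted p under 0.05, 7 of the 10 were higher in KO, where 7.74% of all genes were, and 0 were lower, where 7.39% of all genes were. In 3 of the 10, Ago1, Ago2 and Tnrc6a, every KO library lay above every Flox library, as in 4.18% of all genes; in 0 of the 10 did every KO library lie below, as in 3.79% of all genes. Because the 10 were chosen with earlier results of these data known, these shares describe them and are not a test. In these bulk libraries more RNA per cell cannot be told apart from a shift between kinds of cells.

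**Figure D1:**
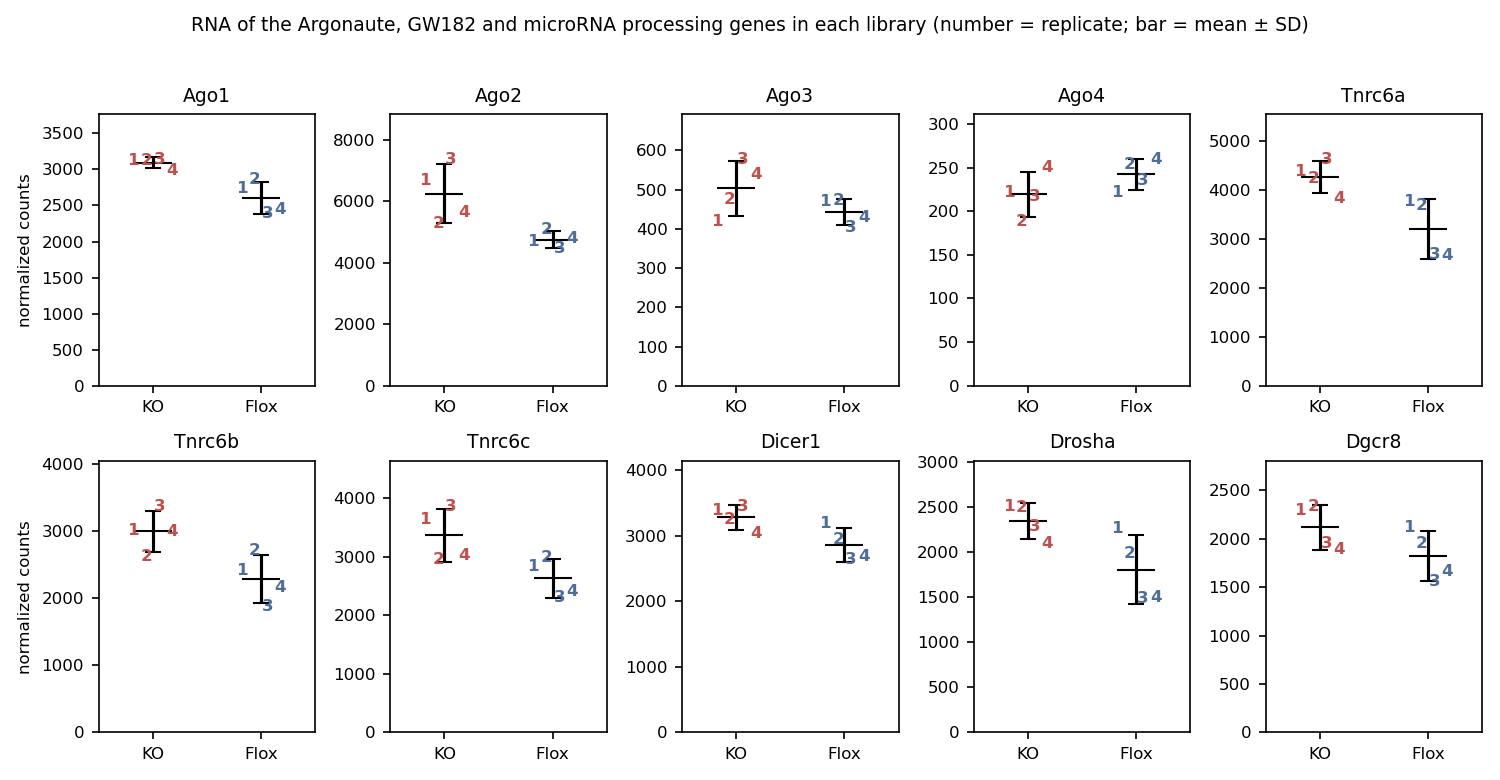
Normalized counts (y axis, from 0) of the 10 genes in the KO and Flox RNA-seq libraries; digits mark the replicate number, and bars show the mean ± SD of 4 libraries. In Ago1, Ago2 and Tnrc6a the KO libraries lie above all Flox libraries, and Ago4 is the gene with the lower KO mean.

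Among the Argonautes, Ago2 is known as the only one in mammals with strong slicing activity. It had 6686, 5279, 7357 and 5648 normalized counts in KO 1 to KO 4 and 4687, 5090, 4461 and 4779 in Flox 1 to Flox 4. KO 1 and KO 3, the libraries that stood apart on the first component, were the highest, and the lowest KO library was above the highest Flox library by a small margin. Ago2 averaged 6243 ± 952 in KO and 4754 ± 261 in Flox (SD, n = 4 each). The log2 difference was 0.38 (SE 0.11, limma adjusted p = 0.239). Without KO 1 and KO 3 together the log2 fold change of Ago2 was 0.20 (SE 0.08, limma adjusted p = 0.777), and without KO 3 alone it was 0.30. The authors' deposited table gives Ago2 a log2 fold change of 0.39 and an FDR of 0.0589, and DESeq2 here gave an adjusted p of 0.0532, the lowest of the 10 genes in any setting.

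Ago1, Ago3 and Ago4 lie one after another on the minus strand of chromosome 4, Ago3 at 126331704 to 126429556, Ago1 at 126435012 to 126468583 and Ago4 at 126489541 to 126533472 (GRCm38). Whether their fold changes differ from each other was not tested. Ago1 had 3122, 3126, 3138 and 2980 normalized counts in KO 1 to KO 4 and 2735, 2855, 2383 and 2446 in Flox 1 to Flox 4, without overlap and with little spread among the KO libraries. The log2 fold change of Ago1 was 0.25 (SE 0.08, limma adjusted p = 0.250), and it was 0.23 without KO 1 and KO 3 together. Ago3 had 419.6, 476.0, 576.9 and 539.6 in KO 1 to KO 4 and 468.8, 472.0, 402.9 and 428.7 in Flox 1 to Flox 4, and the groups overlapped because KO 1 was below 3 of the Flox libraries. Its log2 fold change was 0.18 (SE 0.12, limma adjusted p = 0.492), or 0.11 without KO 3. Ago4 had 222.0, 187.8, 217.4 and 250.1 in KO 1 to KO 4 and 220.9, 253.0, 235.1 and 259.3 in Flox 1 to Flox 4. It was the one gene of the 10 with a lower mean in KO, but the groups overlapped widely and the log2 difference of -0.15 (SE 0.13, limma adjusted p = 0.592) was about the size of its error. Without KO 2 the value for Ago4 was -0.07, and without KO 4 it was -0.21.

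The 250 bases before the RefSeq start of Ago1 and of Ago4 are shown for these neighbours with fold changes of opposite sign, with those of Drosha and Dgcr8, whose proteins work as a pair. Capitals mark the GC box GGGCGG and the CCAAT box CCAAT on either strand. They lie at chr4:126468584-126468833 (Ago1, the more downstream of its 2 starts), chr4:126533459-126533708 (Ago4), chr15:12824565-12824814 (Drosha, plus strand) and chr16:18289169-18289418 (Dgcr8); all but Drosha are on the minus strand.
Ago1: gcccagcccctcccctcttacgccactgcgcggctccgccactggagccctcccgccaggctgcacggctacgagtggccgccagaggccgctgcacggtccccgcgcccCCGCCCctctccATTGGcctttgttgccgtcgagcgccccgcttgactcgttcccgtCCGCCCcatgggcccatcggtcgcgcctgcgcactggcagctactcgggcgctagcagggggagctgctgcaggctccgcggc
Ago4: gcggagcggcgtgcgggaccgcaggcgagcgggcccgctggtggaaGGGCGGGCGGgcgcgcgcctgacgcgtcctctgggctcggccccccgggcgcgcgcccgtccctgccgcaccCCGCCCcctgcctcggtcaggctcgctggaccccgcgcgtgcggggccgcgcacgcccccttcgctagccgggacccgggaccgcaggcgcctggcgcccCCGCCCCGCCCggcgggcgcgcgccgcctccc
Drosha: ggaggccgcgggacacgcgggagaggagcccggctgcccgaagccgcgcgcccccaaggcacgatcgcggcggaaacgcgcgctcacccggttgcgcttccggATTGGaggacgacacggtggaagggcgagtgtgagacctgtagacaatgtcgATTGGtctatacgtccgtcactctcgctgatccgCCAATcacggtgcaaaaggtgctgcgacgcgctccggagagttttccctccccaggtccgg
Dgcr8: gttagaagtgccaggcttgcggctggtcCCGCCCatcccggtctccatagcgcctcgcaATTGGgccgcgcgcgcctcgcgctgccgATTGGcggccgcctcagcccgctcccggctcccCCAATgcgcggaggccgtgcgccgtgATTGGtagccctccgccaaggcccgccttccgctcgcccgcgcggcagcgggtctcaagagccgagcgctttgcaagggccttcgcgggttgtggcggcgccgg

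These windows were rich in CpG dinucleotides. The Ago4 window held 46 CpG and 5 GC boxes, some overlapping each other, and 0 CCAAT boxes. The Ago1 window held 28 CpG, 2 GC boxes and 1 CCAAT box. Drosha had 33 CpG, 0 GC boxes and 3 CCAAT boxes, and Dgcr8 had 36 CpG, 1 GC box and 4 CCAAT boxes, none of which overlapped the GC box. Over all 32851 RefSeq windows the median was 6 CpG, 32.7% held a GC box and 33.9% a CCAAT box. Of the 9 genes with a window, 6 held a GC box and 5 a CCAAT box, and Tnrc6a had the fewest CpG of those with a single window, 9. The Tnrc6a window, at chr7:123123635-123123884, lies inside the RefSeq gene, whose outermost start is at 123031101. A match is a description of the letters, not of binding. Ago2 had no window in the table.

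The GW182 genes had some of the largest fold changes of the 10. Tnrc6a had 4381, 4232, 4624 and 3826 normalized counts in KO 1 to KO 4 and 3771, 3690, 2691 and 2652 in Flox 1 to Flox 4. The KO libraries lay above the Flox libraries, but KO 4 was only just above Flox 1, and Flox 3 and Flox 4 were far below the other two. The log2 fold change of Tnrc6a was 0.43 (SE 0.13, limma adjusted p = 0.240), the largest of the 10. Tnrc6b had 3004, 2617, 3373 and 2988 in KO 1 to KO 4 and 2407, 2713, 1882 and 2154 in Flox 1 to Flox 4. KO 2 lay below Flox 2, and the log2 fold change was 0.40 (SE 0.12, limma adjusted p = 0.241). Tnrc6c had 3631, 2950, 3868 and 3017 in KO 1 to KO 4 and 2841, 2982, 2304 and 2401 in Flox 1 to Flox 4. Its log2 fold change was 0.35 (SE 0.12, limma adjusted p = 0.253), and without KO 1 and KO 3 together it was 0.19.

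In the processing genes the lowest values were those of Flox 3 and Flox 4. Drosha had 2508, 2495, 2284 and 2094 normalized counts in KO 1 to KO 4 and 2263, 1978, 1483 and 1495 in Flox 1 to Flox 4, so Flox 1 lay within the KO range and Flox 3 and Flox 4 far below it. The log2 fold change of Drosha was 0.40 (SE 0.14, limma adjusted p = 0.258), and 0.31 without Flox 3. Its partner Dgcr8 had 2286, 2336, 1948 and 1890 in KO 1 to KO 4 and 2111, 1952, 1557 and 1659 in Flox 1 to Flox 4, with Flox 1 and Flox 2 inside the KO range. Its log2 fold change was 0.22 (SE 0.12, limma adjusted p = 0.377), or 0.15 without Flox 3. Dicer1 had 3393, 3247, 3456 and 3033 in KO 1 to KO 4 and 3186, 2947, 2635 and 2680 in Flox 1 to Flox 4. KO 4 lay below Flox 1, and the log2 fold change was 0.20 (SE 0.09, limma adjusted p = 0.316).

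Gene length moved with these fold changes. Among protein-coding genes that averaged 50 or more normalized counts, the median log2 fold change was -0.12 in the shortest of 5 equal classes by span and 0.13 in the longest, and 7 of the 10 genes were in the longest class and 3 in the next. With a correction of each library for span and GC content the sign of all 10 was as before. The median of the 10 was then 0.21, against 0.30, and 5 of them had an unadjusted p under 0.05. Ago2 was at 0.28 and Tnrc6a at 0.33, Drosha at 0.27, Tnrc6b at 0.23, Tnrc6c at 0.22, Dicer1 at 0.10 and Ago3 at 0.06. Without KO 1 and KO 3 together the median was 0.21, and 2 had an unadjusted p under 0.05. Mitochondrial reads were highest in KO 1 and KO 3, where Ago2, Tnrc6a, Tnrc6b, Tnrc6c and Dicer1 were highest too, and their part in these values was not tested.

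**Figure D2:**
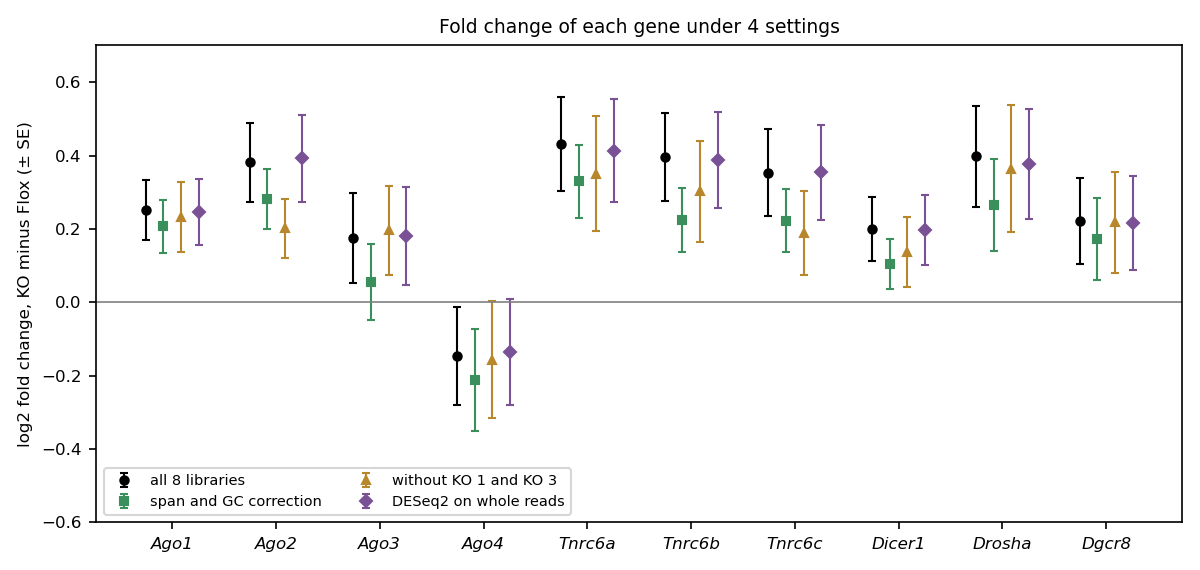
Log2 fold change of KO over Flox with its SE (y axis) for each gene, with all 8 libraries in limma, after the correction for gene span and GC content, without KO 1 and KO 3, and in DESeq2. The sign is the same in all 4 settings, Ago2 falls to 0.20 without KO 1 and KO 3, and Ago3 falls to 0.06 with the correction.

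The make-up of each family was compared as shares of reads, without a test. Of the reads in the Argonaute rows, Ago2 took 61.8 ± 3.28% in KO and 59.1 ± 1.13% in Flox (SD, n = 4 each), with overlapping ranges of 58.2 to 65.2% and 57.8 to 60.4%. Ago4 took 2.19 ± 0.32% in KO and 3.01 ± 0.24% in Flox, and its highest KO share, 2.66%, was below its lowest Flox share, 2.72%. Its own normalized counts overlapped, at 187.8 to 250.1 in KO and 220.9 to 259.3 in Flox. A share also depends on the other rows, mostly Ago2 and Ago1, which had higher means in KO. Ago1 took 30.9 ± 2.83% in KO and 32.4 ± 1.23% in Flox, and Ago3 5.03 ± 0.72% and 5.51 ± 0.18%. Within the GW182 rows, Tnrc6a took 40.2 ± 2.02% in KO and 39.3 ± 2.05% in Flox, Tnrc6b 28.2 ± 1.63% and 28.2 ± 1.45%, and Tnrc6c 31.6 ± 1.41% and 32.5 ± 1.03%. These are shares of reads, which also depend on transcript length, so they do not order the paralogs by number of molecules.

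Across the 8 libraries Ago2 varied most like Tnrc6c among the other 9 genes, with Pearson's r of 0.94, followed by Tnrc6b (0.89), and least like Ago4 (-0.27). By r with Ago2, Tnrc6c ranked only 136 and Tnrc6b 395 among protein-coding genes averaging 50 or more. Among 10264 other protein-coding genes averaging 50 or more, those most like Ago2 by r were Atp6v0a1 (0.982), a subunit of the vacuolar proton pump, Frs2 (0.979), an adaptor of growth factor receptors, the lysosomal protein gene Laptm5 (0.979), the centriole gene Cep164 (0.979) and Plekhm3 (0.979). All points share the genotype difference and the spread of the KO libraries, so r describes only these 8 libraries.

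Genes that work around these 10 were examined too. Of 75 genes in 5 lists, 73 were tested, and 0 passed in limma and 0 in edgeR. DESeq2 called 2, with 1.76% of all genes called. At an unadjusted p under 0.05, 12 of the 73 were higher in KO, where 7.74% of all genes were, and 4 were lower, where 7.39% were. The median log2 fold change was 0.05, with 42 of 73 positive. Every KO library lay above every Flox library in 6 of the 73, as in 4.18% of all genes. In 2 of the 73 every KO library lay below, as in 3.79% of all genes.

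In the deadenylation list, the CCR4-NOT and PAN2-PAN3 complexes and their partners, 13 of 18 were positive with a median of 0.07, 4 had an unadjusted p under 0.05, all higher in KO, and 0 passed. Its scaffold gene Cnot1, which GW182 proteins contact, averaged 10966 ± 1528 normalized counts in KO cells and 8078 ± 1322 in Flox cells (SD, n = 4 each), which is 0.45 on the log2 scale (SE 0.13, limma adjusted p = 0.239). Cnot3, another subunit, was at 3597 ± 701 in KO and 2613 ± 174 in Flox, a log2 fold change of 0.44. Cnot4, a ubiquitin ligase linked to the complex, was at 0.32, and at 0.20 after the span and GC correction. Without KO 1 and KO 3 together Cnot1 was at 0.30, Cnot3 at 0.20 and Cnot4 at 0.13.

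In the list for decapping and repression, 10 of 16 were positive with a median of 0.13, and 3 had an unadjusted p under 0.05, all higher in KO. Patl1, a decapping activator, was at 0.41, Gigyf2, a translational repressor, at 0.35 and the helicase Ddx6, which joins deadenylation to decapping, at 0.18. Without KO 1 and KO 3 together Patl1 was at 0.18, Gigyf2 at 0.22 and Ddx6 at 0.13, and Gigyf2 was also at 0.22 after the span and GC correction. In the list for nuclear processing and export, 7 of 12 were positive with a median of 0.09, and at an unadjusted p under 0.05 there were 2 higher and 1 lower in KO. Xpo5, which carries precursor microRNAs out of the nucleus, was at 2862 ± 459 in KO and 2306 ± 282 in Flox, a log2 fold change of 0.31. The RNA-binding protein gene Khsrp was at 0.20 and the splicing factor gene Srsf3 at -0.21. Without KO 1 and KO 3 together Xpo5 was at 0.14, Khsrp at 0.12 and Srsf3 at -0.07, and Srsf3 was at -0.14 without KO 3 alone.

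In the list for dicing and turnover of small RNA, 5 of 11 were positive with a median of -0.06, and at an unadjusted p under 0.05 there were 2 higher and 2 lower. Lin28a, which blocks maturation of the let-7 microRNAs, was at 615.5 ± 80.3 in KO and 862.1 ± 131.6 in Flox, without overlap, which is -0.48 on the log2 scale (SE 0.14, limma adjusted p = 0.239), and DESeq2 called it (adjusted p = 0.0499). Prkra, which encodes the Dicer partner PACT, was at 225.0 ± 42.9 in KO and 296.5 ± 29.3 in Flox, also without overlap, a log2 fold change of -0.41. Without KO 1 and KO 3 together Lin28a was at -0.34 and Prkra at -0.49, and Prkra was at -0.28 without KO 2. Zswim8, which directs the decay of Argonaute with certain guides, was at 0.25, or 0.15 without KO 1 and 0.11 without KO 1 and KO 3 together. In the list of loading factors and Argonaute partners, 7 of 16 were positive with a median of -0.02, and at an unadjusted p under 0.05 there were 1 higher and 1 lower. The chaperone Hspa8, which helps to load Argonaute, was at 19564 ± 4253 in KO and 13228 ± 2169 in Flox, which is 0.55 on the log2 scale (SE 0.16, limma adjusted p = 0.240), and DESeq2 called it (adjusted p = 0.0474); without KO 1 and KO 3 together it was at 0.30. Wtip, a LIM-domain protein gene at 5.58 ± 4.93 in KO and 14.8 ± 6.17 in Flox, was at -1.42, or -0.68 with a pseudocount of 10 and -0.85 without KO 1 and KO 3 together. Fmr1, which encodes an RNA-binding protein that associates with Argonaute, was at 0.19, or 0.11 without KO 3 and 0.11 without Flox 4.

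**Figure D3:**
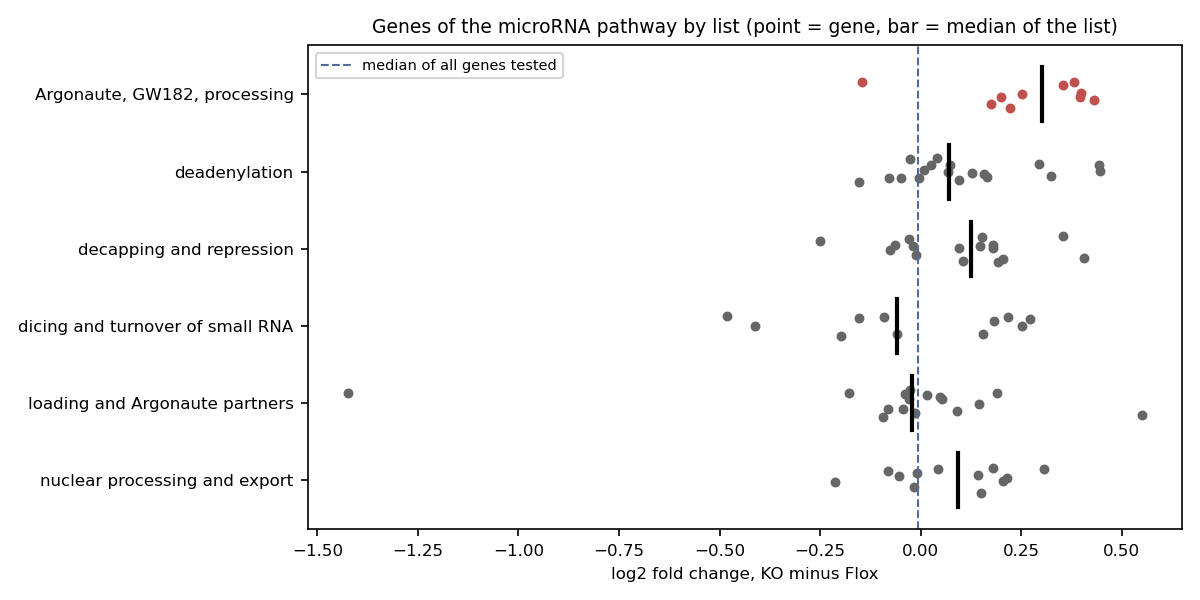
Log2 fold change of KO over Flox (x axis) of each tested gene of the microRNA pathway, by list (y axis); points are genes, black bars the median of each list and the dashed line the median of all genes tested. The Argonaute, GW182 and processing genes have a median of 0.30, and the other 5 lists lie between -0.06 and 0.13.

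The next question was where Ago2 CLIP reads lay on the RNA of its own machinery. The deposited CLIP output pools replicates and compares a pair of conditions that its header does not name, so values carry no error and no direction by genotype. It divides each cluster of reads into bins of 5 nt with 1 of 3 states, and a stretch here is a run of adjacent bins in the same state. Every stretch in state 0 had a mean difference below 0 (median -0.23), and every stretch in state 2 one above 0 (median 0.26). State 1 held differences of both signs, from -0.29 to 0.27 (median -0.01), so the states are not a split by sign. The 10 genes held 2866 of the 962700 stretches on their own strand, and 34 on the opposite strand.

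Ago2 CLIP stretches covered the genes very unequally. Stretches of all 3 states count as covered, also those of state 1, whose score is 0, so coverage is not a measure of Ago2 binding alone. They covered 44.7% of the span of Ago2 in 559 stretches and 36.7% of Tnrc6a in 356. Tnrc6c was covered over 33.6% in 498 stretches and Tnrc6b over 29.8% in 948. The median over 11588 tested protein-coding genes was 6.16% of the span and 17 stretches. Over the 5381 of them that average 1000 or more normalized counts over at least 5 kb of span, the median was 13.4%. Ago3 and Ago4 average below 1000 normalized counts and are not among these genes. Among all 11588, Tnrc6b ranked 79 by number of stretches and Ago2 ranked 225, without matching for span or level. Dgcr8 was covered over 25.3% of its span, Dicer1 over 18.1% and Ago1 over 16.4%. Ago3 was covered over 7.89%, and Drosha and Ago4 over 1.33% and 1.27%.

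Drosha and Tnrc6c have spans of much the same length and unlike coverage. Drosha spans 110476 nt and averaged 2345 normalized counts in KO and 1805 in Flox, while Tnrc6c spans 109151 nt and averaged 3366 in KO and 2632 in Flox. Drosha held 24 stretches over 1470 nt, and Tnrc6c 498 stretches over 36700 nt. The last 5 kb of Drosha held 0 covered bases, as in 4.68% of the 5381 tested protein-coding genes that average 1000 or more over at least 5 kb of span, for which the median was 24.1% covered. Ago4 held the fewest stretches, 5, and averaged 219 normalized counts in KO and 242 in Flox.

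In 8 of the 10 genes the last 5 kb was more densely covered than the gene as a whole, the exceptions being Dgcr8 and Drosha. Medians over all tested protein-coding genes go the same way, 11.4% of the last 5 kb and 6.16% of the span. How many of those genes have this pattern was not counted, so it is not given as a trait of the 10. All 5000 nt of it were covered in Ago2, and 98.8% in Tnrc6b, 80.6% in Ago1, 65.2% in Dicer1, 64.5% in Tnrc6c and 56.2% in Tnrc6a. In Ago3, Dgcr8 and Ago4 it was covered over 32.1, 21.8 and 11.2%, against a median of 11.4% over all tested protein-coding genes. Over the 5381 that average 1000 or more over at least 5 kb of span, the median was 24.1%. In Ago1, 73.4% of all covered bases lay in this window, but only 12.6% in Ago2, where each of the first 5 of 20 equal parts of the gene was covered over 60.8% or more. In Dgcr8 the second of these parts from the 5′ end was covered over 92.9% and the last over 48.8%.

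**Figure D4:**
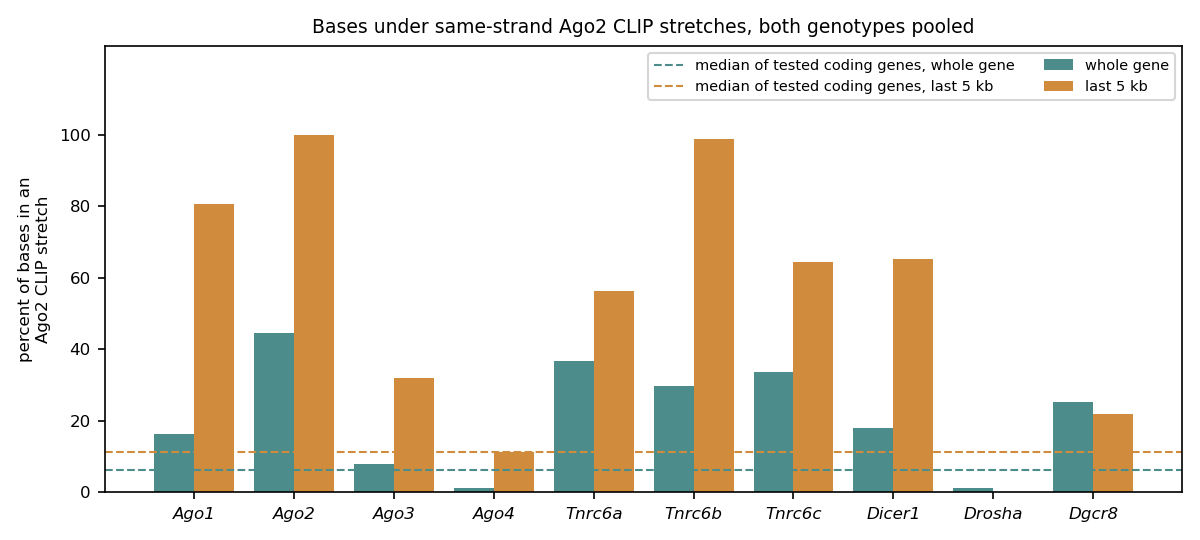
Percent of bases (y axis) that lie in a same-strand Ago2 CLIP stretch, over the whole gene and over its last 5 kb, for the 10 genes, with both genotypes pooled; dashed lines are medians of tested protein-coding genes. Ago2 and Tnrc6b are covered almost throughout their last 5 kb, and Drosha has 0 there.

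**Figure D5:**
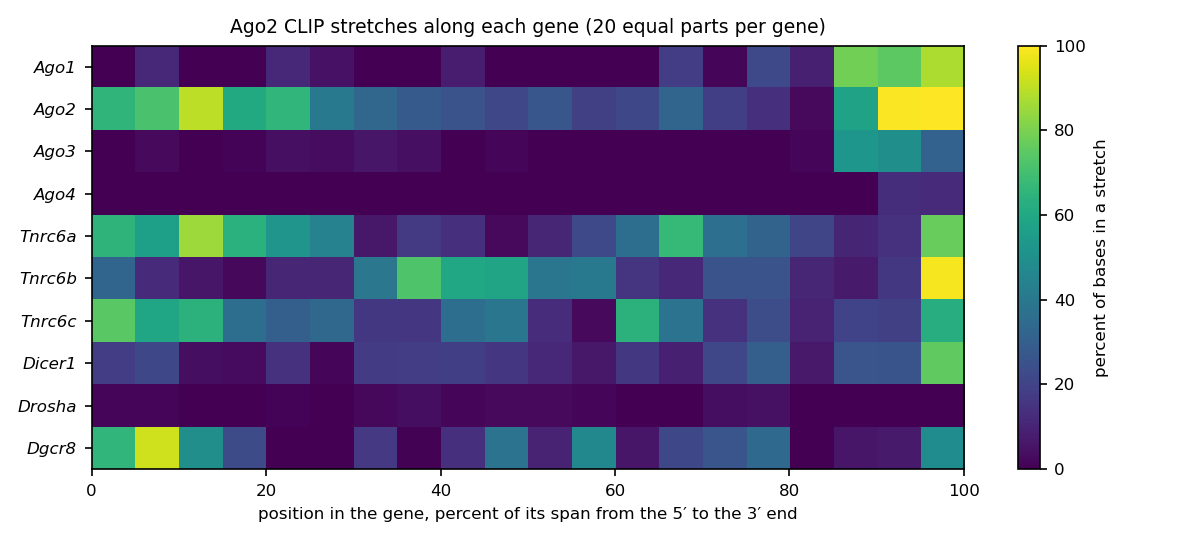
Percent of bases in an Ago2 CLIP stretch (colour) in 20 equal parts of each gene, from its 5′ end to its 3′ end (x axis, percent of the span). Ago1, Ago3 and Ago4 are covered mainly near the 3′ end, Ago2 and the GW182 genes at both ends and within, and Dgcr8 most near the 5′ end. The 5′ end drawn for Tnrc6a lies 92784 nt inside the RefSeq gene.

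The 3′ end of Ago2 depends on the annotation. The gene in the deposited table ends 5781 nt beyond the RefSeq gene (GRCm38.p6), whose 3′ end is at 73101625 on the minus strand of chromosome 15, and 5761 of those 5781 nt lay in Ago2 CLIP stretches. The last 5 kb of Ago2 described here lies wholly outside the RefSeq gene. Ago3 is the reverse case: its 3′ end in the table lies 4710 nt short of the RefSeq end, so its last 5 kb here is not the end of the RefSeq gene. The start of Tnrc6a used here, 123123885, lies 92784 nt inside the RefSeq gene, which starts at 123031101. The covered share of Tnrc6a, 36.7%, and its 5′ part are those of this shorter span. The highest score of any stretch in the 10 genes, 88.6 on the authors' scale, was in Ago2 beyond the RefSeq end. It lay at chr15:73096835-73096909, 991 nt from the annotated 3′ end. The second of Ago2, with a score of 69.1, was at chr15:73101255-73101309, also beyond the RefSeq end.

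Most stretches were in state 1. In the 10 genes 29.2% of stretches were in state 0, against 33.1% over all stretches, and 12.5% in state 2, against 9.28%. Ago2 had the highest share in state 2, 15.9%. Among stretches in the last 5 kb, 24.7% were in state 0 and 21.7% in state 2, while over all tested protein-coding genes 29.2% of stretches in that window were in state 0 and 14.6% in state 2. By gene, state 2 took 20 of 69 stretches in the last 5 kb of Ago2, 19 of 65 in Tnrc6b, 17 of 59 in Tnrc6c and 13 of 53 in Tnrc6a. It took 10 of 64 in Ago1, 7 of 52 in Dicer1, 2 of 24 in Ago3 and 0 of 14 in Dgcr8. The mean difference in this window was positive in Ago2 (0.06), Tnrc6c (0.04), Tnrc6b (0.04) and Tnrc6a (0.02), and negative in Ago1 (-0.04), Ago3 (-0.05), Ago4 (-0.01), Dicer1 (-0.02) and Dgcr8 (-0.04). The median over 8965 protein-coding genes with a stretch there was -0.04, and Ago2 lay at percentile 97.3 of these genes. Stretches of 1 gene come from the same pooled libraries and are not replicates, so no test was made of these shares.

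Of the 401 stretches with a score of at least 5 in the 10 genes, 293 (73.1%) were in state 2, against 58.0% of the 116297 such stretches over the whole output. Over the whole output scores start at 2.90 in state 2 (median 6.7) and at 0.6 in state 0 (median 2.3). A cut at 5 thus keeps a larger part of state 2 than of state 0. What part this has in the share of the 10 genes was not tested. The highest in Tnrc6b were at chr15:80929735-80929774 (score 82.9, difference 0.36) and chr15:80940680-80940744 (71.5, difference 0.33), 11312 and 342 nt from the 3′ end, both in state 2. In Tnrc6a, stretches of opposite sign lay close together near the 3′ end: chr7:123194230-123194269 in state 0 (score 62.6, difference -0.28) and chr7:123193925-123193964 in state 2 (48.7, difference 0.35). In Tnrc6c the highest was in state 0 and inside the gene, at chr11:117721705-117721784 (82.2, difference -0.20), 41655 nt from the 3′ end, and the next in state 2 at chr11:117761400-117761504 (48.1, difference 0.30). In Dicer1 the highest pair was in state 0, at chr12:104702795-104702854 (38.4) and chr12:104690345-104690374 (29.8). In Ago1, Ago3, Drosha and Dgcr8 the highest pair was in state 2, with top scores of 24.1, 21.5, 5.40 and 12.5, and the 5 stretches of Ago4 were all in state 1 with a score of 0.

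The hairpins within Dgcr8, whose arms are printed above, lie in the densely covered 5′ part of the gene. The miR-1306 hairpin itself held 0 stretches: the nearest covered bases began 57 nt beyond its 5′ end and 144 nt beyond its 3′ end. The miR-3618 hairpin overlapped 1 stretch, chr16:18284620-18284654, by 18 nt at its 5′ edge, of which 4 nt lay in the miR-3618-5p arm. That stretch was in state 0, with a score of 1.90 and a mean difference of -0.16. The highest-scoring stretch of Dgcr8 (chr16:18284895-18284919, state 2) lay further 5′ than both hairpins. In Tnrc6b, 36 nt of the miR-5113 hairpin were covered, with 0 nt of the mature arm. Over all 1005 RefSeq hairpins 10.7% overlapped a stretch on their strand, and those of miR-221 and miR-222 held 0 stretches.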

How the data were processed

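RNA-seq and Ago2 HITS-CLIP were each done on 4 KO and 4 Flox libraries, grouped by their labels; the RNA-seq table's headers call the Flox libraries WT. The 10 genes and the pathway and marker lists were chosen with earlier results of these data known. Per the submitters' processing notes, cutadapt, Bowtie2, SAMtools, STAR, DESeq2 and DESeq were used, without versions or roles. The notes name mm9, but the gene coordinates of the RNA-seq table are those of GRCm38: 5 of the 10 genes share a start or end with RefSeq GRCm38.p6. The CLIP output was taken to be on the same build, which was not checked in this way. In the 10 genes 2866 of its stretches lay on the gene's own strand and 34 on the opposite strand.

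The RNA-seq values were deposited as normalized counts, a signal in which the authors scaled each library's gene counts by its own size factor. At least 99.96% of values came back as whole reads within 0.1 read. The deposited log2 fold changes, p-values with FDR and percent GC per gene are the authors' own. In the CLIP output, the authors' bins carry a state, a difference score and a probability, a fraction that was not used, per the file headers. The score of each stretch comes from the authors' deposited summary. Another 4 columns, reads and mutations of 2 unnamed conditions, were not used.

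Genes with a mean of at least 10 normalized counts over 8 libraries were tested with limma-trend (limma 3.58.1, R 4.3.3) on log2 of the value plus a pseudocount of 1, which understates fold changes of low genes, with Benjamini-Hochberg adjustment. The threshold was an adjusted p of 0.05. Alternatives were TMM scaling, a pseudocount of 10, no filter, a mean of at least 50, edgeR 4.0.16 (quasi-likelihood) and DESeq2 1.42.0 on the recovered reads, a replicate block, a spline correction of each library for span and GC content with 4 degrees of freedom each, and leaving out libraries. The procedure was tested on simulated data. The genes named were all 10, up to 3 of each pathway list with the smallest p, the 5 genes most like Ago2, and the 2 stretches of each gene with the highest score. Promoter and microRNA sequences are from RefSeq GRCm38.p6, and 9 of the 10 genes had a promoter window. Limits from 3 reads cover counting error only.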

Additional observations from a re-analysis of the deposited data

Results flagged for a closer look

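In 3 of 50 groups of 4 libraries checked, 1 library lay far from the other 3 relative to the range of the group, which chance gives in about 1 of 20 groups. Ago1 had 2980.1 normalized counts in KO 4, against 3122.3, 3125.9 and 3137.9 in the other KO libraries, and KO 4 was still above every Flox library. Zswim8 had 2401.2 in Flox 2, against 2216.4, 2210.4 and 2223.3 in the other Flox libraries. Wtip had 12.9 in KO 4, against 3.2, 3.9 and 2.3 in the other KO libraries.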

How the results depend on the processing

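None of the 10 genes was called in any setting, and all 170 values under the alternatives kept the direction of the fold change. With no filter, a mean of at least 50 or the replicate block, the fold change is the main one by construction. Those settings therefore could not change its direction. The number of genes called over the whole table was 9 in limma and 213 in DESeq2. Leaving out 1 library gave 8 to 17 genes, with 17 without KO 2 and 14 without KO 4. DESeq2 called 2 of the other pathway genes, Hspa8 and Lin28a, and limma 0. Of 250 values of the 15 named pathway genes with an adjusted p, 248 stayed on their side of the threshold and 2 passed it, those of Hspa8 and Lin28a in DESeq2. DESeq2 gave Wtip no adjusted p, and Wtip was not tested with a mean of at least 50, without KO 4, without Flox 3 or without Flox 4. Family shares moved by less than 1 SD when a library was left out, as any mean of 4 values must, so this was no check of them. Samples with the same replicate number did not deviate together (correlations of -0.09, -0.06, -0.05 and 0.003), so the numbers were not taken to pair them; with the replicate number as a block, 11 genes and 0 of the 10 were called. Of the 2866 CLIP stretches, 401 had a score of at least 5, and 34 more lay on the opposite strand. CLIP replicates are pooled and its conditions unnamed, which leaves no error for any CLIP value, and 4 libraries a group limit the RNA-seq tests.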
